A study of Mus musculus with 3 samples.

Results

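Genes that encode sialomucins were examined in endothelial cells of the forming kidney vasculature: Cd34, Podxl, Podxl2, Emcn, Cd164 and Spn. They were chosen by name, and every probe set that the platform annotation assigns to exactly 1 gene symbol equal to one of the 6 was used, which gave 1 probe set for each gene. They are 6 of 19938 named genes, and their probe sets are 6 of the 35557 measured. The cells came from E15.5 kidneys (15.5 dpc) of CD-1 mice carrying the Tg(TIE2GFP)287Sato transgene, in which the promoter of Tek, the gene of the receptor Tie2, drives green fluorescent protein. GFP positive cells were collected by fluorescent activated cell sorting, RNA was amplified in 1 round and each of 3 pools of 4 to 5 kidneys was hybridized to 1 Affymetrix Mouse Gene 1.0 ST array. The 3 arrays form a single group, so no difference between cell types or conditions could be tested. Each limma p-value rests on the spread between the arrays, moderated with the spread of all probe sets. The study's text describes its samples as independent biological ones, and the labels name no litters. What can be read is which sialomucins, and which enzymes and partners that act on them, had signal over a filter level in the sorted cells.

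Sialomucins are membrane proteins whose extracellular part is densely covered with sialic acid bearing O-linked sugars, which makes the cell surface bulky and negatively charged. Cd34, podocalyxin (Podxl) and endoglycan (Podxl2) form 1 family with a common cytoplasmic tail that binds adaptors of the actin cortex. In developing vessels sialomucins gather at the luminal face, where their charge helps opposing membranes to part, and with the right sugars they serve as ligands of selectins on leukocytes. CD34 also marks blood progenitors, podocalyxin coats the foot processes of podocytes, endomucin (Emcn) is found on venous and capillary endothelium, CD164 is a widely expressed partner of the chemokine receptor CXCR4, and CD43 (Spn) is the main sialomucin of leukocytes. The Tek promoter is also active in some blood progenitors and macrophages, so a Tie2-GFP gate does not by itself exclude such cells.

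The promoters of these genes are shown first, because the study asked which factor sites lie upstream of the genes of the embryonic endothelium, with ETS sites in the foreground. RefSeq windows of assembly GRCm38.p6 were found for 5 of the 6 genes, Podxl being the other one. The 250 bases before the start are printed 5′ to 3′ on the strand of the gene for Cd34 and Emcn, the endothelial members, and for Cd164 and Spn, the members best known outside the endothelium. Capitals mark the core of ETS family sites, GGAA or its reverse complement TTCC. The windows lie at chr1:194938571-194938820 (plus strand, Cd34), chr3:137340828-137341077 (plus strand, Emcn), chr10:41519250-41519499 (plus strand, Cd164) and chr7:127137824-127138073 (minus strand, Spn).
Cd34: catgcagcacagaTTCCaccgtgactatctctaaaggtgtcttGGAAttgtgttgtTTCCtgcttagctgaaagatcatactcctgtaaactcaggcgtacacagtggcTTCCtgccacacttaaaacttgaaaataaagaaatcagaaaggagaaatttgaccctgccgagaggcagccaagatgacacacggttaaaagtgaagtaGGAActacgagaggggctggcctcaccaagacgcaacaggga
Emcn: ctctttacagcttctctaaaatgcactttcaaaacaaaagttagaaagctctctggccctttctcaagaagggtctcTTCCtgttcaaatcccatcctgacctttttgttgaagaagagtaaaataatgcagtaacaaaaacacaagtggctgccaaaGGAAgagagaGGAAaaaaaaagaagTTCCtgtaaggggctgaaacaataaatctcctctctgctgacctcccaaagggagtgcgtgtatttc
Cd164: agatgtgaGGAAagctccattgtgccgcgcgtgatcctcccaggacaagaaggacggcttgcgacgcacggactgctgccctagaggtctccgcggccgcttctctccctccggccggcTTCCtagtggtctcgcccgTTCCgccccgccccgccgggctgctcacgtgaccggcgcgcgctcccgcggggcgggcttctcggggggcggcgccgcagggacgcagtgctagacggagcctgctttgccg
Spn: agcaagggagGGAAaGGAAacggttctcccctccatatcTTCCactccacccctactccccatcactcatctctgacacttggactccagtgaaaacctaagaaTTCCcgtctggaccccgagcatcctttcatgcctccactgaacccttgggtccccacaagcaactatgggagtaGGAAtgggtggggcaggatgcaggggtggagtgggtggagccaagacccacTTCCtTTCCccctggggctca

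The ETS core is frequent in any promoter: 93.5% of 32841 windows of this length held at least 1, with a median of 3 per window. Cd34 held 5 cores, Emcn 4, Cd164 3 and Spn 7. Windows with at least 7 cores made up 3.82% of all. The longer run TTCCTG, or CAGGAA on the other strand, which contains the core and is the invariant part of an ETS2 site that the study searched for, was present once or more in 25.7% of windows and at least 2 times in 4.17%. Both Cd34 and Emcn held 2 such runs, beginning at positions -194 and -141 from the start in Cd34 and -173 and -67 in Emcn. Cd164, Spn and the 3 windows of Podxl2 held none. The full site of the study reads RYTTCCTG, where R is A or G and Y is C or T. Both runs of Cd34 fit this full form, and neither run of Emcn does. The study counted conserved sites, and conservation was not examined here. Neither Cd34 nor Emcn is among the genes that the study lists with this site. A match in letters is a description of the sequence and not a bound site.

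The same windows differed in CpG content. Cd164 held 33 CpG dinucleotides, more than 96.0% of windows, and a G and C content of 71.6%. Of the 3 start sites listed for Podxl2, the most CpG dense had 42 CpG and no ETS core, and the others had 27 and 9 CpG and 1 core each. Emcn had a single CpG at a G and C content of 40.8%, and 7.86% of windows held fewer. Cd34 with 6 CpG stood at the median of all windows, which was also 6, and Spn had 3. The promoters of Cd34 and Emcn were poorer in CpG than those of Cd164 and of all 3 Podxl2 starts.

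**Figure D1:**
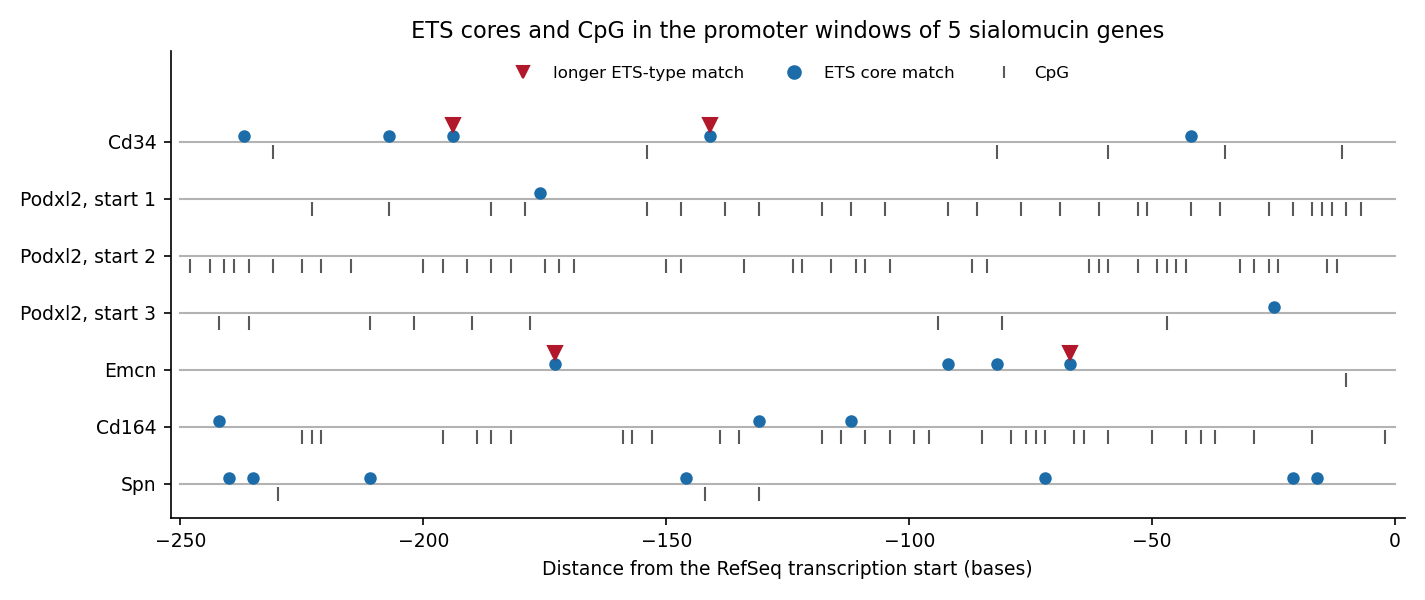
The 250 bases before each RefSeq start of 5 sialomucin genes, with distance from the start in bases on the x axis and 1 line per start site. Blue circles are ETS cores, red triangles are the longer ETS-type run, and grey ticks are CpG dinucleotides. Cd34 and Emcn are the genes with red triangles, 2 each, and Cd164 holds 33 grey ticks.

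The identity of the sorted cells was checked with marker genes outside the sialomucin set. Of 10 endothelial markers 8 were above the filter level of 100 on the raw scale (6.64 log2), the cutoff that the study's methods apply to low signals, and none was below it. All 10 were over 100 in all 3 arrays. Over all 19938 named genes 41.6% were above the level and 8290 were below. Podocyte markers were 1 above and 3 below of 6 measured, T cell markers 0 above and 4 below of 5, and mural markers 1 above and 4 below of 5. Macrophage markers were uneven between arrays: their mean was 6.65, 7.78 and 8.13 log2 in arrays 1, 2 and 3, with all 10 genes lowest in array 1. By the level test 1 of the 10, Cx3cr1, was above and none below, and with a spread pooled over all probe sets 6 were above and none below. The macrophage receptors Adgre1 (6.26 ± 0.58) and Csf1r (6.95 ± 0.48) were on neither side (SD, n = 3), and the mannose receptor Mrc1 was at 6.51, 9.08 and 9.97 log2 in arrays 1, 2 and 3 (chosen after its values were seen). Array 3 also had the narrowest spread over probe sets, with an SD of 1.84 log2 against 2.08 in array 1 and 2.06 in array 2, and its value for olfactory and vomeronasal receptor genes, which serve as background, had a median of 5.08 against 4.68 and 4.71.

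Of the 6 sialomucins 5 lay above the filter level and 1, Podxl2, lay below it, by an adjusted p under 0.05 in limma's level test across all probe sets. Among all probe sets 35.5% were above the level and 41.7% below. The median of the 6 genes was 9.43 log2, against 6.67 for all 19938 named genes, of which 41.6% were above. Probe sets differ in affinity, so the values below are set against the level and between arrays, and not between genes.

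Emcn, endomucin, measured 12.15, 12.08 and 11.53 log2 in arrays 1, 2 and 3. All 3 arrays lay far over the level, at a mean of 11.92 ± 0.34 (SD, n = 3), which corresponds to 38.7 times the level on the raw scale (limma adjusted p = 0.00125). Array 3 gave the lowest value.

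Cd34, the antigen of endothelium and of blood progenitors, measured 11.49, 11.02 and 9.93 log2 in arrays 1, 2 and 3. Its mean of 10.81 ± 0.80 (SD, n = 3) was about 18 times the level (limma adjusted p = 0.00998), a call that was lost without array 1 (adjusted p = 0.0682) or array 2 (adjusted p = 0.0942). Array 3 was again the lowest, and the spread between arrays was wide, greater than that of 95.6% of the named genes with a mean of at least 100. Of 6 progenitor markers measured beside it 2 were above the level and 1 below, with the stem cell factor receptor Kit at 8.56 ± 0.90 and the blood-forming factor Runx1 at 6.15 ± 0.41 on neither side (SD, n = 3). Megakaryocyte markers were 1 above and 2 below of 4, and erythroid markers 2 above and 2 below of 5. With the pooled spread progenitor markers were 3 above and none below. Kit and Lmo2 were among those above (Lmo2 chosen after its values were seen). Array 3 was lower than array 1 for Kit (-1.73 log2) and Lmo2 (-1.94), and higher for 1 marker, Runx1 (0.71). The part of progenitors in the Cd34 value was not tested.

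Podxl, which endothelium shares with podocytes, measured 8.25, 7.94 and 7.94 log2, with identical values in arrays 2 and 3. The mean of 8.04 ± 0.18 (SD, n = 3) was 2.64 times the level (limma adjusted p = 0.00479), a call that was lost without array 2 (adjusted p = 0.0543) or array 3 (adjusted p = 0.0818). Of the podocyte markers measured beside it, nephrin Nphs1 was at 6.46 ± 0.23 and the foot process protein Synpo at 5.99 ± 0.10, of which Synpo was below the level. Wt1, a factor of nephron progenitors as well as podocytes, was just above it at 6.71 ± 0.00, though not by a spread pooled over all probe sets (SD, n = 3; chosen after its values were seen). The part of podocytes in the Podxl value was not tested.

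Podxl2, endoglycan, the family member described mainly in the nervous system, had the same value of 6.0 log2 in all 3 arrays. It was below the level at 0.642 of it (limma adjusted p = 3.88e-05). Of 5 neuronal markers 1 was above and 3 below, or 1 above and 2 below with a spread pooled over all probe sets. Tubb3, a neuronal tubulin, was at 6.32 ± 0.60 on neither side, and the RNA-binding protein Elavl3 was below at 6.20 ± 0.00, though not by the pooled spread (SD, n = 3). Stmn2, a tubulin regulator of neurons, was the marker above, at 7.36 ± 0.24 (SD, n = 3, chosen after its values were seen). Ties were frequent in the deposited values: 55.9% of probe sets had equal values in at least 2 arrays and 19.7% in all 3. For a probe set tied in all 3, such as Podxl2, limma's p-value rests on the spread borrowed from all probe sets. With 1 spread of 0.49 log2 pooled over all probe sets, Podxl2 was also below (adjusted p = 0.0322), though not when array 1 or array 2 was also left out.

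Cd164, endolyn, measured 11.64, 11.01 and 10.75 log2 in arrays 1, 2 and 3. Its mean of 11.13 ± 0.46 (SD, n = 3) was 22.5 times the level (limma adjusted p = 0.00294), a call that was lost without array 3 (adjusted p = 0.0542). Array 1 stood apart as the highest, 1.55 times array 2 and 1.86 times array 3.

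Spn, the leukocyte sialomucin CD43, measured 6.75, 6.75 and 6.83 log2. The mean of 6.78 ± 0.04 (SD, n = 3) was 1.10 times the level, the closest to it of the 6 genes (limma adjusted p = 0.0265). This call rested on the small spread: with the pooled spread it was lost (adjusted p = 0.732), as it was after quantile normalization (adjusted p = 0.0946), without array 1 (adjusted p = 0.124) and without array 2 (adjusted p = 0.127). Of 10 leukocyte markers 3 were above and 2 below. With the pooled spread 4 were above and 2 below. The general leukocyte markers Ptprc (CD45, 6.30 ± 0.50) and Coro1a (7.03 ± 0.02) lay near the level, whereas Tyrobp, a signalling adaptor of myeloid cells, was far over it at 8.16, 9.72 and 10.56 log2 in arrays 1, 2 and 3, as was the actin bundler Lcp1 at 9.03 ± 0.01 (SD, n = 3, Tyrobp and Lcp1 chosen after their values were seen). The list mean was 6.68, 7.25 and 7.70 log2, with some markers wider in spread than Spn and others narrower. The part of leukocytes in the Spn value was not tested.

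**Figure D2:**
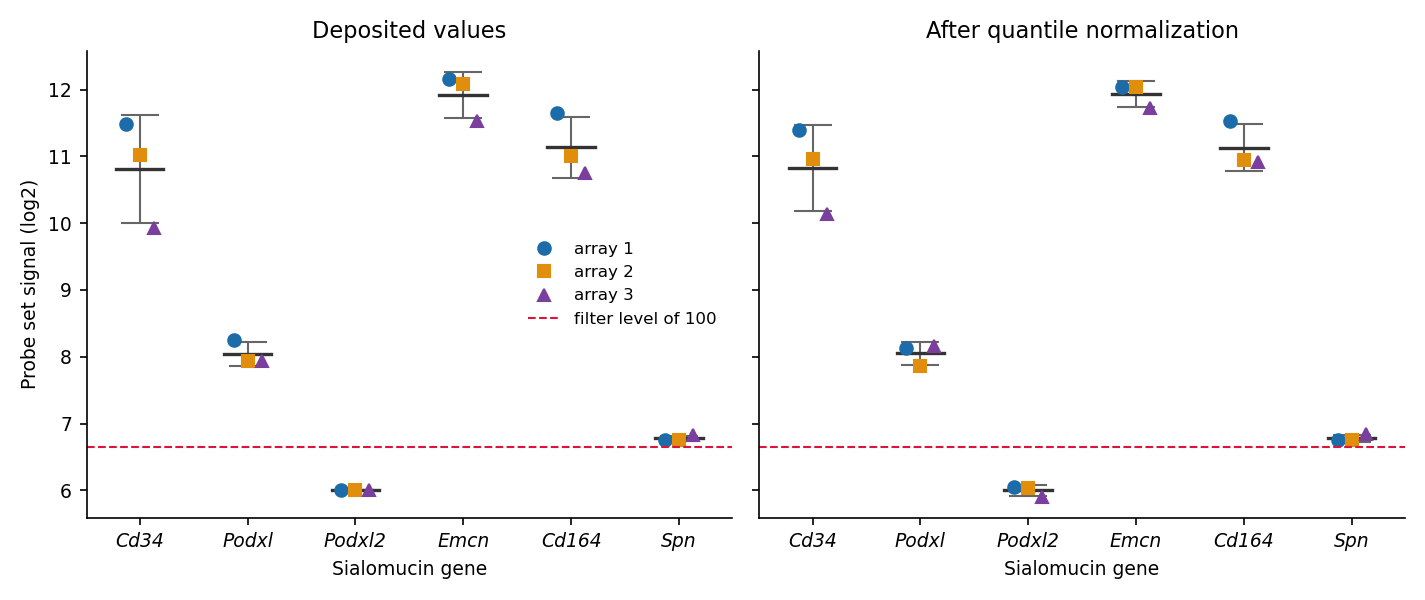
Signal of the 6 sialomucin probe sets in each array in log2 units, as deposited (left) and after quantile normalization of the arrays (right). Symbols are single arrays, bars are the mean and SD over 3 arrays, and the dashed line is the filter level of 100. Emcn, Cd34 and Cd164 sit between 9.93 and 12.15 in the deposited values, all far over the line, whereas Podxl2 sits under it at 6.0.

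The 3 sialomucins with a range of more than 0.5 log2 between arrays, Cd34, Emcn and Cd164, were all lowest in array 3. Array 3 minus array 1 was -1.56 for Cd34, -0.89 for Cd164 and -0.62 for Emcn. The endothelial markers moved the same way, all 10 being lower in array 3 than in array 1, by -0.76 (Egfl7) to -2.19 (Eng) and -1.28 on average. Emcn therefore fell less between these arrays than any of the 10 markers, and Cd34 more than the average of them. The 10098 genes with a mean of at least 100 leaned the same way on average. Their mean deviation was 0.11, 0.06 and -0.17 log2 in arrays 1, 2 and 3, so a lower array 3 is not particular to these genes. In bulk samples fewer cells of a type and less RNA per cell cannot be told apart.

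Among the sialomucins Cd34 had the smallest spread relative to the endothelial markers. When the mean of the 10 markers was subtracted within each array, the SD of Cd34 between arrays was 0.15 log2, against 0.80 before. For Emcn it was 0.34 both before and after the subtraction, and for Cd164 0.39 after and 0.46 before. For Podxl (0.58 after and 0.18 before), Podxl2 (0.68 after and 0 before) and Spn (0.72 after and 0.04 before) the subtraction widened the spread. A gene that is nearly equal in all arrays takes on the spread of the markers by this step. Over 3 arrays these are descriptions, and no test was made.

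Macrophage markers moved in the opposite direction, with all 10 genes higher in array 3 than in array 1, by 1.48 log2 on average. Leukocyte markers were higher in array 3 in 7 of 10 genes and lower in 1, Lcp1 (chosen after its values were seen), by 0.01. Podocyte markers differed by 0.26 on average and mural markers by 0.03. The part of macrophages in the lower sialomucin values of array 3 was not tested.

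The differences between arrays were smaller for Cd34, Cd164 and Emcn after the arrays were brought to 1 distribution. After quantile normalization array 3 minus array 1 was -1.26 for Cd34, -0.62 for Cd164 and -0.33 for Emcn, array 3 being below array 1 for all 3 genes as before. For Podxl the difference changed sign, at -0.32 as deposited and 0.03 after normalization. Podxl2 and Spn differed by at most 0.15 between any 2 arrays under either scale.

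**Figure D3:**
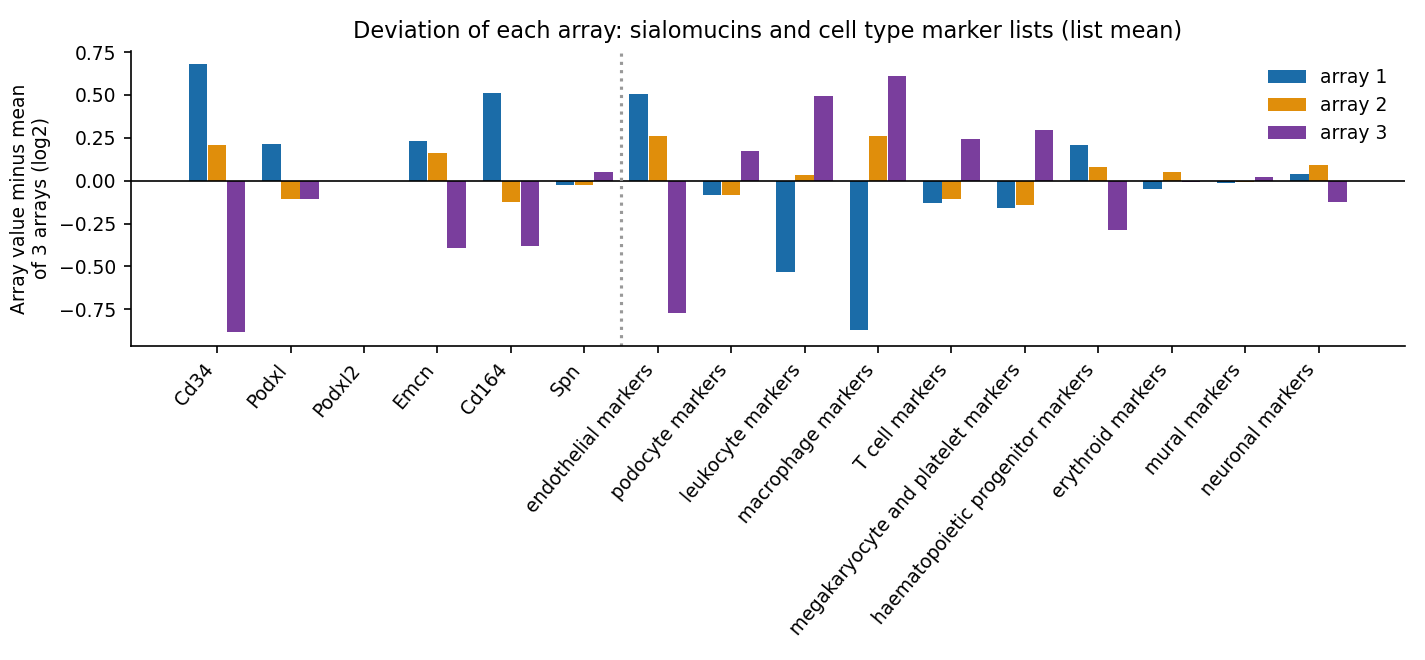
Deviation of each array from the mean of the 3 arrays in log2 units, for each sialomucin (left of the dotted line) and as the mean over each list of cell type markers (right of it). Array 3 lies 0.88 below the mean for Cd34 and 0.77 below for endothelial markers, and 0.61 above for macrophage markers.

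The genes whose profile over the 3 arrays lay nearest to a sialomucin were taken among 10097 other genes with a mean of at least 100, by the Euclidean distance of the 3 values after each gene's mean was subtracted. For Cd34 these were the transcription factor Tead2 (distance 0.02 log2), the ARF GTPase activating protein Acap2 (0.02) and the nucleolar protein Nop56 (0.03), and 49 genes lay within 0.1. For Cd164 they were the kinase Cdk2 (0.01), the nuclear pore protein Nup93 (0.02) and the pyruvate dehydrogenase kinase Pdk3 (0.03), with 37 genes within 0.1. For Emcn they were Pdpr (0.01), Pdcd4 (0.01) and Mon2 (0.01), with 521 genes within 0.1. None of these 3 was within 0.1 of another: Cd34 lay 0.67 from Emcn and 0.63 from Cd164, and Emcn lay 0.40 from Cd164. Of all genes compared 0.49% lay within 0.1 of Cd34, 0.37% of Cd164 and 5.16% of Emcn, so a larger distance was the usual case. The measure rests on 3 arrays only.

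Genes of 8 pathways around sialomucins were then read by the same level test, 82 of 87 being measured and 48 above the level. Over all 19938 named genes 41.6% were above and 8290 were below, with a median of 6.67 log2. Higher shares above were found for cytoplasmic partners (100%), lumen formation (91.7%), the CXCL12 list (83.3%), sialylation, fucosylation and sulfation (61.1%), and initiation and extension (52.9%). Lower shares were found for selectins and their ligands (33.3%), sialidases (25%) and other mucin-like glycoproteins (23.1%). The cytoplasmic partners of the CD34 family were carried as a group. All 7 measured were above the level, with a median of 8.26 log2. The PDZ adaptors that bind the tail of podocalyxin were at 7.60 ± 0.16 (Slc9a3r1, NHERF1) and 9.63 ± 0.44 (Slc9a3r2, NHERF2), and ezrin Ezr, which ties such adaptors to actin, was at 7.78 ± 0.00 (SD, n = 3). Moesin Msn, the related linker that is abundant in endothelium, measured 10.62, 10.30 and 9.07 log2 in arrays 1, 2 and 3, with array 3 lowest as for Cd34 (chosen after its values were seen). Crkl, an adaptor that binds CD34, was at 8.10 ± 0.13 (SD, n = 3, chosen after its values were seen).

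Genes of vascular lumen formation were above the level in 11 of 12 cases, with a median of 9.32 log2. VE-cadherin Cdh5, at whose contacts the sialomucins first gather, was at 11.08 ± 0.59, Rasip1, which is required for vessel lumens, at 8.81 ± 0.34 and its partner Arhgap29 at 9.78 ± 0.93 (SD, n = 3). The polarity gene Pard3 was the single gene below, at 6.61 ± 0.00, and not by the pooled spread. All 11 genes of this list that differed between arrays were lowest in array 3. The share of all genes lowest in array 3 was not counted. The mean deviation in array 3 was -0.41 log2 for this list and -0.17 for the 10098 genes with a mean of at least 100. A lower array 3 is thus not particular to lumen genes.

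The enzymes that build mucin-type sugars were mixed. Of 17 genes of initiation and extension 9 (52.9%) were above and 5 below, with a median of 7.09 log2. Over all named genes 41.6% were above, with a median of 6.67, so this list lay not far from that share. Among the transferases that attach the first sugar, Galnt2 was above at 7.45 ± 0.00, Galnt1 at 8.83 ± 1.03 did not pass the test (limma adjusted p = 0.0569), and Galnt3 (5.95 ± 0.25) and Galnt6 (5.31 ± 0.32) were below (SD, n = 3). The core 1 synthase C1galt1, which makes the common extended core, was at 7.94 in all 3 arrays, and its chaperone C1galt1c1 measured 9.18, 9.18 and 9.58 log2, both above the level (both chosen after their values were seen). Gcnt1, which branches this core, was below at 5.98 ± 0.23 (SD, n = 3). With the pooled spread 8 genes of this list were above and 6 below. Galnt1, at 9.47, 9.37 and 7.64 log2 in arrays 1, 2 and 3, was then above, as was Galnt2.

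Of 18 genes of sialylation, fucosylation and sulfation 11 were above and 4 below, with a median of 7.45 log2. Genes of sialic acid synthesis and activation were above the level: Gne was at 8.27 ± 0.67, Nans at 8.16 ± 0.37 and Cmas at 8.08 ± 0.22 (SD, n = 3). Below it were the sialyltransferases St6galnac1 (6.12 ± 0.00) and St6galnac4 (6.12 ± 0.22) and the fucosyltransferases Fut4 (6.07 ± 0.20) and Fut7 (6.02 ± 0.02), of which Fut7 completes selectin ligands (SD, n = 3; Fut7 was chosen after its values were seen). With the pooled spread 2 genes of this list were below, Fut7 and Chst4. The sulfotransferase Chst4 of lymph node venules was at 5.69 ± 0.47 and did not pass limma's test (adjusted p = 0.0529), while Chst2 was above at 8.09 ± 0.09 (SD, n = 3, both chosen after their values were seen). Of 4 sialidases 1, Neu3 at 6.91 ± 0.06, was above, Neu2 at 5.93 ± 0.00 was below, and Neu1 at 6.78 ± 0.11 was on neither side. With the pooled spread no sialidase was above.

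Selectins and their other ligands were mostly below the level, 4 of 6 measured. E-selectin Sele was at 6.54 ± 0.01, the leukocyte ligand Selplg at 6.32 ± 0.00 and Glycam1, a mucin of lymph node venules, at 5.64 ± 0.29 (SD, n = 3). Cd24a, a small mucin-like protein of many embryonic cells, was above in all 3 arrays at 12.17, 12.17 and 12.16 log2, and the venular ligand Madcam1 was just above at 6.84 ± 0.00. With the pooled spread Glycam1 and Cd44 were below and Cd24a alone was above. Of 13 other mucin-like membrane glycoproteins 3 were above and 8 below, with a median of 6.08. The epithelial mucins Muc1 (4.82 ± 0.00), Muc4 (6.08 ± 0.02) and Muc13 (5.39 ± 0.00) were below, and Tmem123 (8.63 ± 0.58), Cd99l2 (7.75 ± 0.24) and Parm1 (6.77 ± 0.00) were above (SD, n = 3), Parm1 not by the pooled spread. With that spread 3 genes of this list were above and 6 below. Cd68, also a macrophage marker, was then among those above, at 7.30, 8.95 and 8.82 log2 in arrays 1, 2 and 3 (chosen after its values were seen).

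The chemokine receptor with which CD164 associates was carried as well. Cxcr4 measured 9.08, 8.34 and 8.01 log2 in arrays 1, 2 and 3, at a mean of 8.48 ± 0.54 (SD, n = 3, limma adjusted p = 0.0231). Array 1 was the highest for Cxcr4 as for Cd164, and likewise for all 10 endothelial markers. Its ligand Cxcl12 was just above the level at 6.78 ± 0.00 and the scavenging receptor Ackr3 at 7.14 ± 0.38 did not pass (SD, n = 3). Of 6 genes of this list 5 were above and none below, and 3 were above with the pooled spread, Cxcl12 not among them.

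**Figure D4:**
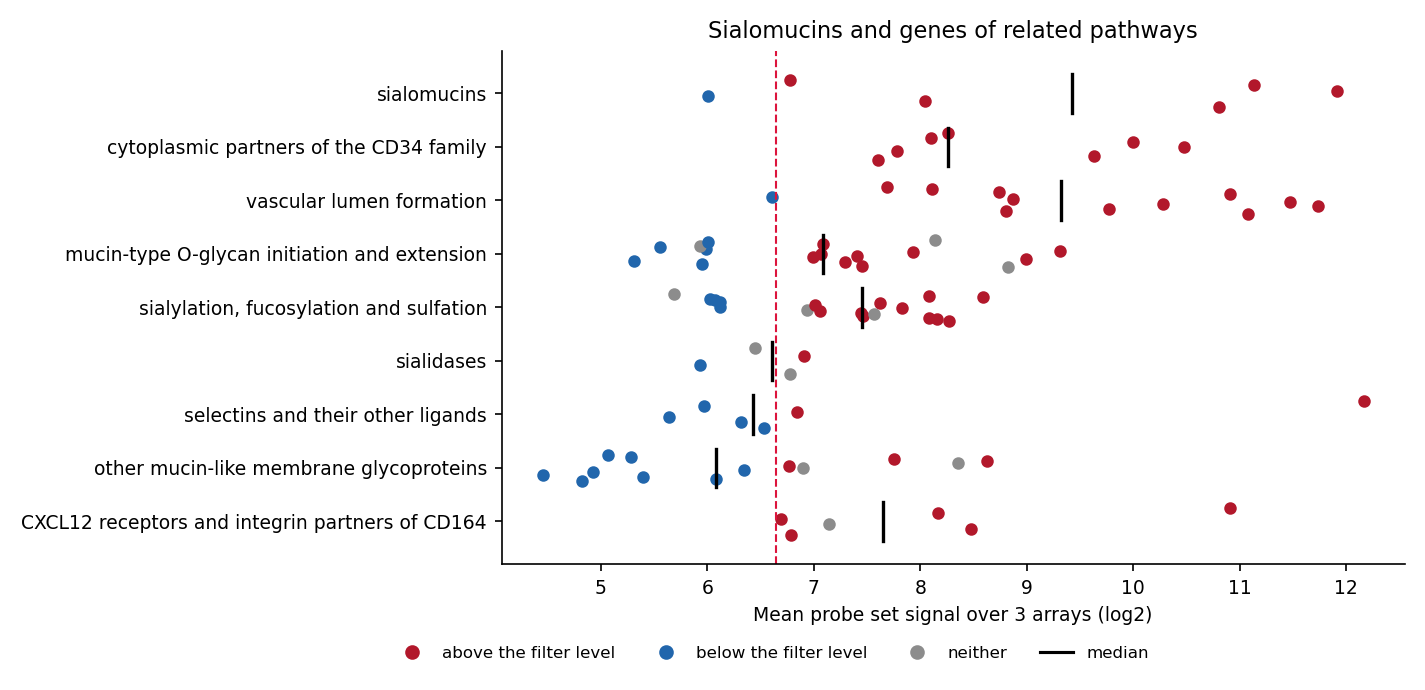
Mean signal over 3 arrays in log2 units of the 6 sialomucins and of the measured genes of 8 related pathways, 1 point per gene and 1 row per list. Red points were above the filter level (dashed line) by limma's test, blue points below and grey points on neither side, and black bars are medians. All 7 cytoplasmic partners lie right of the line, and the median of other mucin-like glycoproteins lies left of it at 6.08.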

How the data were processed

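The deposited table holds log2 values of 35557 probe sets on 3 arrays, which the authors made with Affymetrix Expression Console, as the submitters' processing notes name it without a version. The summarization algorithm is stated neither by the methods nor by the labels, and the study's RMA normalization in GeneSpring is not stated to apply to this table. The values were used as they stand. No array build is given, so the only positions printed are those of the RefSeq promoter windows, in RefSeq's build. Having 3 arrays limits the precision.

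The platform annotation (21789 probe sets with 1 symbol, 1621 with several, 12147 unnamed here) was updated through gene identifiers in RefSeq (GRCm38.p6, 21698 matched), giving 19938 genes, each the mean of its probe sets. The mean of every probe set was tested against log2(100) with limma 3.58.1 in R 4.3.3 (intercept-only fit, eBayes, one-sided in each direction, Benjamini-Hochberg over all probe sets, threshold 0.05). A gene was above if any probe set was, and below only if all were. The test was checked on simulated data. Alternatives were a pooled spread, no moderation, levels of 50 and 200, quantile and median scaling, a filter on low values, the study's rule of 100 in all 3 arrays, and leaving out each array. The members, the 8 pathway lists and the 10 marker lists were chosen with earlier results of these data known. Named genes were all 6 members, the first 3 measured of each pathway list with up to 3 on the opposite side, the first 2 of each marker list, and the 3 nearest profiles of each member with a range of at least 0.5 log2. Others are marked or stand in a count or range. The first 2 genes of marker lists that no result turns on are not printed. Promoters were read from RefSeq tables, and the search for the longer ETS run was added after the lists were made. Protein sequences were not used here. Python 3.11.15, numpy 2.4.6 and pandas 2.3.3 were used.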

Additional observations from a re-analysis of the deposited data

How the results depend on the processing

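Emcn was above the level under every alternative run. Podxl2 lay 0.36 log2 above a level of 50, was left out by the filter on low values, and was not past the threshold without array 1 or array 2 when the spread was pooled. The other values that changed are these. With a level of 200 the sialomucins above numbered 3 in place of 5 and the pathway genes 17 in place of 48, Podxl was 0.40 log2 over the level (limma adjusted p = 0.109) and Spn was at -0.87 from it. Spn, 0.13 over the level, was not past the threshold with the pooled spread (0.13, adjusted p = 0.732) or after quantile normalization (0.14, adjusted p = 0.0946). Leaving out each array in turn, with 1 residual degree of freedom, gave 2 to 3 sialomucins and 24 to 41 pathway genes above. The distance from the level was then 3.83 to 4.61 log2 for Cd34 (lost without array 1, adjusted p = 0.0682, and without array 2, 0.0942), 1.29 to 1.45 for Podxl (lost without array 2, 0.0543, and without array 3, 0.0818), 4.23 to 4.68 for Cd164 (lost without array 3, 0.0542) and 0.11 to 0.15 for Spn (lost without array 1, 0.124, and without array 2, 0.127). With the pooled spread, chosen after seeing the data, leaving out any array gave the same 4 genes above: Cd34, Podxl, Emcn and Cd164. Of 93 values recomputed, 74 kept their direction and side of the threshold, or for counts stayed within 1.5 times.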
